A study of Mus musculus with 24 samples.

Results

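Livers of overnight fasted male mice that lack both the nuclear receptor PPARα and hepatocyte BCL6 were compared with livers of fasted WT mice by RNA-seq. The double knockout group (DKO, Ppara-/-;Bcl6 fl/fl; Alb-cre, n = 4 libraries) carried a null Ppara allele in the whole body and a floxed Bcl6 that Cre, driven by the Albumin promoter, removes in hepatocytes. The WT group (Bcl6 fl/fl, n = 4) carried the same floxed Bcl6 alleles with no Cre, so the groups differed in Cre too. All mice were of the C57BL/6 strain, and their age is not given in the sources used here. These 8 libraries, of 24 samples in the series and of 20 with a column of values, were taken as the DKO and WT columns of the table made for this pair, and all of its genes were examined. For single genes, values are set beside those of fasted PparaKO (Ppara-/-) against the same fasted WT livers, fed Bcl6LKO (Bcl6 fl/fl; Alb-Cre) against fed WT livers, and fasted against fed WT livers (n = 4 per group). Those comparisons were scaled separately, the PparaKO and fasting comparisons share the fasted WT livers with the DKO comparison, and differences between comparisons were not tested. Whether each sample is a separate animal is not stated in the labels, and the p-values cover only the spread among these libraries.

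In a fast, fatty acids released from adipose tissue reach the liver, where PPARα binds DNA with its partner RXR and switches on the genes of fatty acid oxidation and ketone production. BCL6 is a zinc finger repressor that recruits corepressors. In liver it is known to sit near many PPARα-bound sites and to counteract growth hormone signalling through STAT5, which sets much of the difference between male and female liver. The comparison asks what the fasted liver transcribes when both factors are missing.

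All levels are log2 values as deposited, in which low values are drawn toward the gene's mean, so differences of low genes may be understated. The deposited totals per library were 13.2 to 13.4 mega-units in WT and 13.6 to 14.6 in DKO livers, and read depth is unknown. The first principal component of the tested genes held 78.5% of the variance and separated the DKO from the WT libraries. The second (8.92%) put DKO replicates 1 and 2 on one side (-18.0 and -13.7) and DKO replicates 3 and 4 on the other (9.23 and 20.1), and many results are also given without each of these pairs, an alternative chosen after seeing the data. Hepatocyte markers carried the liver label, with Alb the most abundant gene in each of the 8 libraries. Of the markers of other cell types, erythroid genes were lower in DKO livers (8 of 10 tested, summed level 12101 to 15587 units in WT and 6734 to 9334 in DKO livers, with near-identical globin copies counted separately). Of the 8 listed cholangiocyte markers 3 were tested, and 2 of these, Sox9 and Krt23, were lower (1 without WT replicate 3, median -1.14). Their summed levels overlapped between groups (367 to 719 units in WT and 220 to 579.3 in DKO livers). Krt7, Krt19, Epcam, Cftr and Tspan8 had a mean under 4 and were not tested. Mean levels in WT and DKO livers were 2.88 and 2.79 for Krt7 and 3.94 and 3.87 for Epcam. For Cftr they were 1.19 and 1.12, for Tspan8 1.97 and 1.87, and Krt19 was slightly higher in DKO livers. A fall of cholangiocyte markers as a set is therefore not shown. Among tested markers, 2 of 12 for Kupffer cells, 3 of 14 for stellate cells, 4 of 14 for endothelium and 3 of 3 for neutrophils were higher in DKO livers and none was lower. Their summed levels in WT and DKO livers were 5456 to 7046 and 5286 to 8087 units for Kupffer cells, 7430 to 8906 and 8068 to 10011 for stellate cells, 9342 to 10810 and 10767 to 11466 for endothelium, and 97 to 117 and 127 to 200.1 for neutrophils. The neutrophil count fell to 0 without WT replicate 1 or WT replicate 4 and to 1 without WT replicate 2 or WT replicate 3. Of the 10 listed neutrophil markers, Ly6g, Cxcr2, Mpo, Elane, Camp, Ngp and Retnlg had a mean under 4 and were not tested. The endothelial count fell to 2 without WT replicate 2, 3 or 4 or DKO replicate 1 and to 1 without DKO replicate 2. The stellate count rose to 5 without DKO replicate 4 and to 6 without DKO replicates 3 and 4, and the Kupffer count fell to 1 without WT replicate 2 or 3 or DKO replicate 3 or 4. In bulk liver, fewer cells of a type and less RNA per cell cannot be told apart. Ins1, Ins2, Gcg, Amy2a5 and Cpb1 of the pancreas and Lep, Ckm, Mb and Myh4 of adipose tissue and muscle are listed at 0 in every library.

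The deleted genes were examined first. Ppara (mm10, chromosome 15, 85734983 to 85802819) was 13.20, 13.26, 13.24 and 12.99 in WT replicates 1 to 4 and 11.69, 11.73, 11.46 and 10.73 in DKO replicates 1 to 4. Every DKO library lay below every WT library (difference -1.77, SE 0.19, adjusted p = 4.53e-05), and a remaining signal at Ppara was still counted. Bcl6 (chromosome 16, 23965052 to 23988852) was 8.85, 9.39, 7.32 and 6.95 in the WT and 7.81, 8.13, 7.69 and 7.32 in the DKO libraries. The groups overlapped and the test was not passed (difference -0.39, SE 0.47, adjusted p = 0.54). The difference ran from -0.78 without WT replicate 4 to 0.03 without WT replicate 2. Exons outside the floxed part are still counted, so the gene-level value is a partial check of the Bcl6 deletion, and the labels rest on the genotype given. Of the other PPAR receptors, Ppard was 7.11, 7.09, 7.07 and 7.14 in WT and 7.32, 7.69, 7.82 and 7.56 in DKO livers and rose in all 4 DKO libraries (difference 0.50, SE 0.10, adjusted p = 0.00316). Pparg was 7.21, 7.34, 7.07 and 7.40 and 7.58, 7.78, 7.37 and 7.42 and did not pass the test (difference 0.28, SE 0.11, adjusted p = 0.0637), although it did without DKO replicate 3 (adjusted p = 0.0473).

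Of 24443 genes in the table, 12004 were tested, after 6476 listed at 0 in every library and 5963 with a mean under 4 were left out. At an adjusted p under 0.05 (limma, Benjamini-Hochberg) and a fold over 2, 368 genes were higher in DKO livers (3.07% of those tested) and 366 were lower (3.05%). The groups did not overlap for 721 of these 734 genes, compared with 39.1% of all tested genes. A fold over 4 was reached by 120 higher and 75 lower genes, and a fold over 8 by 53 and 23. By the adjusted p alone, 2314 genes (19.3%) were higher and 2494 (20.8%) lower. This split moved to 1590 and 3416 when all libraries were given equal totals, a scaling that shifts the median difference from 0.0027 to -0.08. The most increased transcripts were those typical of female liver, and the most decreased were those of fatty acid hydroxylation and of male liver. Counts within gene lists below use the adjusted p alone, and the 19.3% and 20.8% above are their background. Because low values are drawn toward the gene's mean, a WT mean of at least 4 can itself owe to high DKO values. The median difference of all tested genes was 0.0027.

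**Figure D1:**
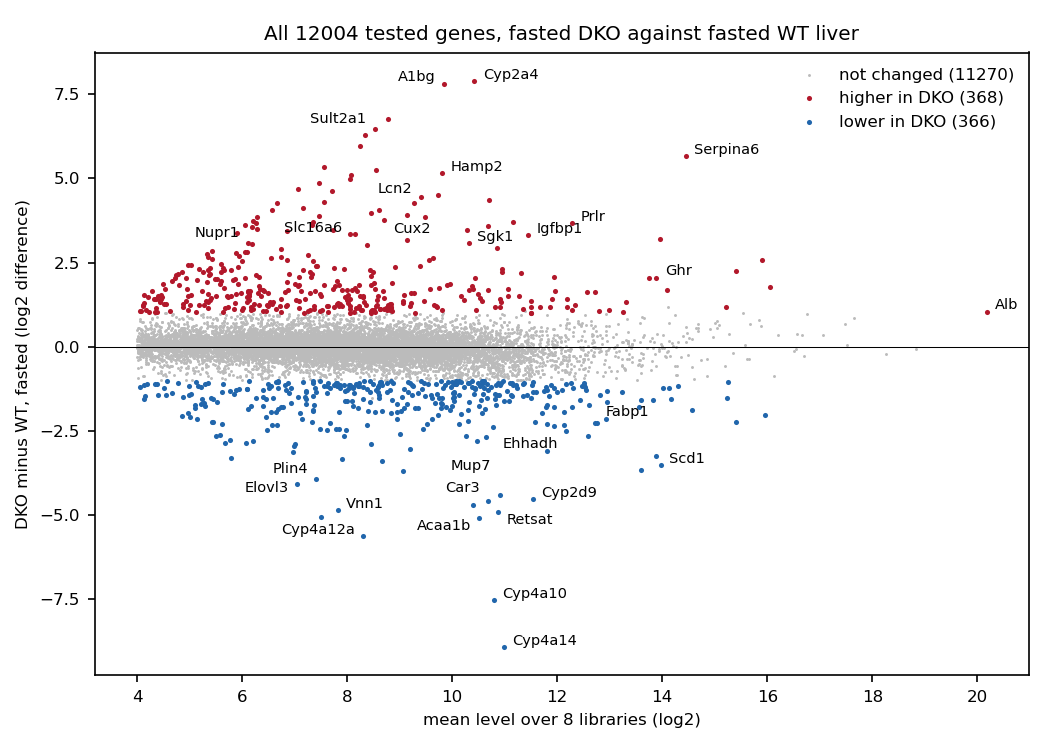
Difference between fasted DKO and fasted WT livers (log2, vertical axis) against the mean level over the 8 libraries (log2, horizontal axis), with each point a tested gene. The 368 changed genes that are higher in DKO livers (red) reach a difference of 7.90 at Cyp2a4, and the 366 that are lower (blue) reach -8.90 at Cyp4a14.

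Genes of fatty acid oxidation were lower in DKO livers in each of its sites, the microsome, the peroxisome and the mitochondrion. In omega-hydroxylation, the microsomal route that oxidizes fatty acids from their far end, 11 of 12 tested members fell and none rose (median difference -1.05). The differences ran from -8.90 to 0.30. Cyp4a14 (chromosome 4, 115486200 to 115496142), a fatty acid hydroxylase, was 15.83, 15.19, 15.46 and 15.29 in WT and 6.48, 6.31, 6.62 and 6.74 in DKO livers. This was the most decreased gene of the comparison (difference -8.90, SE 0.14, adjusted p = 1.54e-11), with no overlap between groups. Cyp4a10, its neighbour and paralog, went from 14.66, 14.31, 14.80 and 14.40 to 6.99, 6.68, 7.33 and 7.15 (difference -7.50, SE 0.15, adjusted p = 1.01e-10). The same genes differed by -6.14 and -5.15 in PparaKO livers, by 1.12 and 1.94 in fed Bcl6LKO livers and by 5.64 and 4.25 in the fast, where 0.621% of tested genes were changed higher and 0.537% lower. As a share of the summed signal, the 7 Cyp4a genes made up 0.555% ± 0.088 of WT and 0.00499% ± 0.00069 of DKO livers (SD, n = 4, two-sided exact permutation test, p = 0.0286, the smallest that 4 against 4 libraries allow). Cyp4a12a and Cyp4a12b, hydroxylases of male liver whose near-identical sequences can share reads, also fell (-5.61 and -5.05). Cyp4a32 fell by 2.65, and the fatty aldehyde dehydrogenase Aldh3a2, which takes the product onward, by 1.16.

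In the peroxisome, 19 of 25 tested members fell and none rose (median -1.17). Acaa1b (chromosome 9, 119148023 to 119157093), the peroxisomal thiolase that ends each round of oxidation, was 13.28, 13.10, 13.02 and 12.82 in WT livers. It was 8.06, 8.25, 8.25 and 7.34 in DKO livers, with every library more than 4 log2 units under every WT value (difference -5.08, SE 0.19, adjusted p = 1.50e-08). Ehhadh, the bifunctional enzyme of the middle steps, went from 13.81, 13.06, 13.76 and 13.08 to 10.86, 10.92, 11.14 and 10.75 (difference -2.51, SE 0.18, adjusted p = 2.40e-06). Decr2, a reductase for unsaturated fatty acids, fell from 11.92, 11.94, 12.12 and 11.92 to 9.17, 9.25, 9.52 and 9.29 (difference -2.67, SE 0.09, adjusted p = 5.67e-09). In all of these every DKO library lay below every WT library.

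Mitochondrial beta-oxidation showed 21 of 24 tested members lower and none higher (median -1.12, 16 of them by over 2-fold), a count that stayed at 21 with any single library left out. Slc25a20, the carrier that brings acylcarnitines into mitochondria, was 10.89, 10.80, 10.94 and 10.93 in WT and 9.22, 9.15, 9.16 and 8.96 in DKO livers (difference -1.77, SE 0.07, adjusted p = 3.82e-08). Eci1, an isomerase for unsaturated chains, went from 10.70, 10.69, 10.79 and 10.78 to 8.70, 8.76, 8.75 and 8.69 (difference -2.02, SE 0.06, adjusted p = 2.55e-09). Hsd17b10, the dehydrogenase of short and branched chains, fell by 1.75. Acsl1, which activates long-chain fatty acids for oxidation, fell by 1.58, from 14.50, 14.27, 14.45 and 14.35 to 13.19, 12.95, 12.86 and 12.26. Acadvl, the very long chain dehydrogenase, and Hadh, the hydroxyacyl-CoA dehydrogenase, fell by 1.15 and 0.81. Cpt1a, the enzyme that controls entry of fatty acids and a gene chosen after its values were seen, was 13.76, 13.68, 14.31 and 14.12 in WT and 13.98, 14.00, 13.74 and 13.33 in DKO livers. Its groups overlapped and it did not pass the test (difference -0.20, SE 0.18, adjusted p = 0.392).

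**Figure D2:**
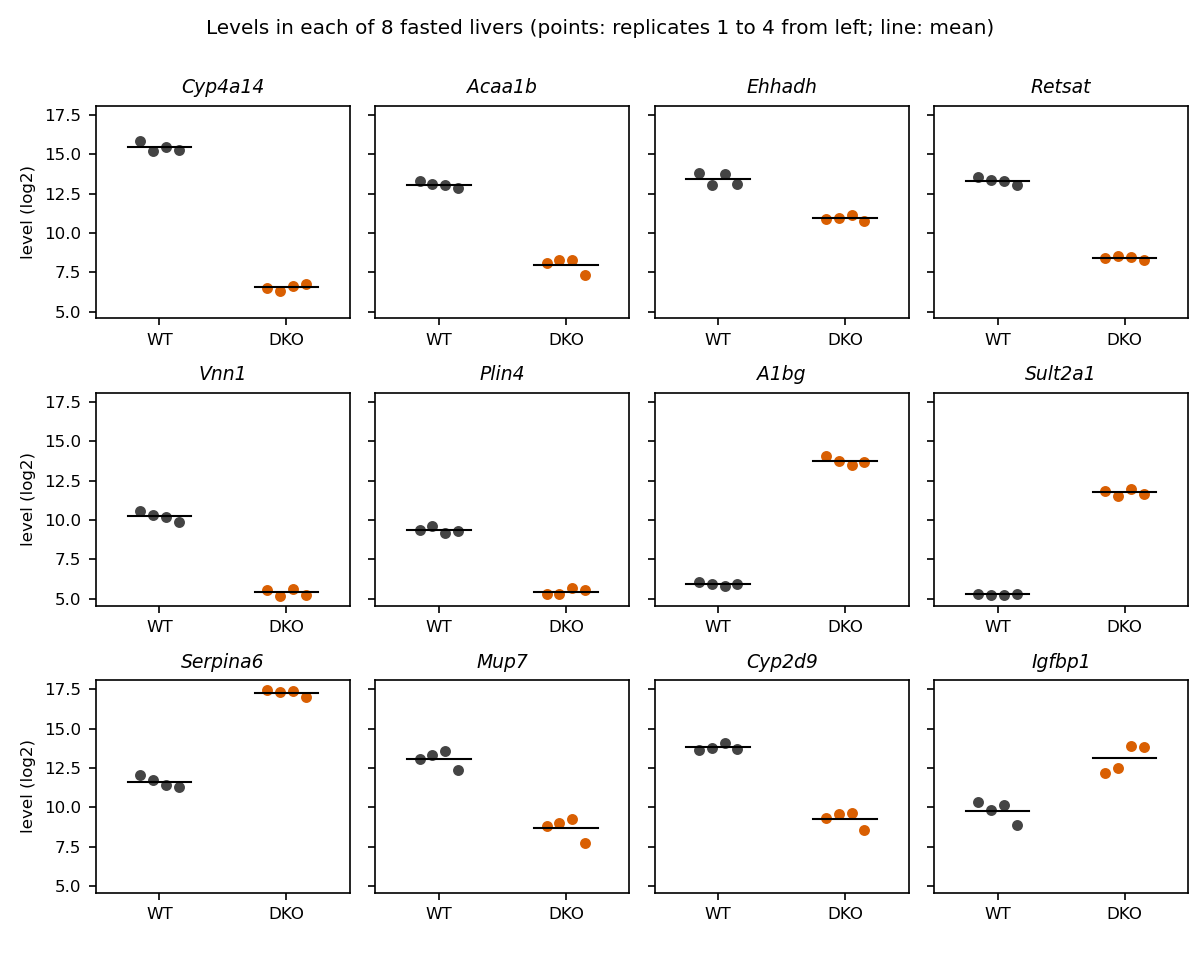
Levels (log2, vertical axis) of 12 genes in the 4 WT and 4 DKO fasted livers, with a point for each library (replicates 1 to 4 from left) and a line at the group mean. The groups do not overlap in any panel, from Cyp4a14 (15.2 to 15.8 in WT and 6.31 to 6.74 in DKO livers) to Igfbp1 (8.85 to 10.3 and 12.2 to 13.9).

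Other genes of fatty acid handling fell with them. Fatty acid uptake and binding had 7 of 13 tested members lower and none higher (median -0.77). Fabp1, the abundant fatty acid binding protein of hepatocyte cytosol, was 14.05, 13.83, 13.77 and 13.87 in WT livers. It was 12.19, 12.16, 11.22 and 10.95 in DKO livers, where replicates 3 and 4 lay below replicates 1 and 2 (difference -2.25, SE 0.25, adjusted p = 6.17e-05). Its promoter is shown because it holds a direct repeat of the half-sites that PPARα with RXR is known to bind, AGGNCANAGGNCA on the reverse strand. The window is chr6:71199629-71199928 on the plus strand of GRCm38.p6 (RefSeq), running from 250 bases before to 50 bases after the start site, with the match in capitals.
Fabp1 promoter: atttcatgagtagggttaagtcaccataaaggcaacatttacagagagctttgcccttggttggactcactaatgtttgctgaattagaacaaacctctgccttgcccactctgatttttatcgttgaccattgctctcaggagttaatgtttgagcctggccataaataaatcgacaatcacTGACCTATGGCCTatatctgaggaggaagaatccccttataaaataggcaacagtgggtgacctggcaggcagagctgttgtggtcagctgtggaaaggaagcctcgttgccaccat
The match covers bases 184 to 196 of the window. Searched on both strands in windows of this length, the motif was found for 122 of 27025 genes with a promoter in the table (0.451%), for 35 of 9285 tested genes (0.377%), for 6 of 276 changed genes higher in DKO livers (2.17%) and for 3 of 271 lower (1.11%). It was found for none of 21 mitochondrial and none of 18 peroxisomal oxidation genes with a promoter. A match is a description of the letters, and binding was not measured here.

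Lipg and Lipc, the endothelial and hepatic lipases that act on plasma lipoproteins, fell from 8.61, 8.61, 8.68 and 7.99 to 5.93, 5.71, 5.41 and 5.04 (difference -2.95, SE 0.20, adjusted p = 1.86e-06) and by 2.59. Acbd5, an acyl-CoA binding protein of the peroxisome membrane, fell by 1.44. Retsat (chromosome 6, 72598475 to 72608425), a saturase of retinol, was 13.55, 13.37, 13.29 and 13.05 in WT and 8.42, 8.55, 8.47 and 8.27 in DKO livers. The lowest WT library lay over 4 log2 units above the highest DKO library (difference -4.89, SE 0.11, adjusted p = 2.32e-10). Vnn1 (chromosome 10, 23894688 to 23905343), the pantetheinase that releases cysteamine in coenzyme A breakdown, went from 10.59, 10.31, 10.22 and 9.88 to 5.56, 5.18, 5.65 and 5.23 (difference -4.84, SE 0.15, adjusted p = 4.70e-09). It led coenzyme A turnover, where 6 of 12 members fell and 1, the related Vnn3, rose by 0.26, a call lost without WT replicate 3 or 4 or DKO replicate 1 or 3 (adjusted p 0.0507 to 0.0607). Pank1, the kinase that opens coenzyme A synthesis, fell by 1.13 and the coenzyme A hydrolase Nudt7 by 1.68.

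Acyl-CoA synthetases had 13 of 15 tested members lower and none higher (median -0.76). The mitochondrial medium-chain synthetase Acsm5 went from 10.83, 10.89, 10.66 and 10.70 to 8.93, 9.17, 9.07 and 8.79 (difference -1.78, SE 0.09, adjusted p = 2.38e-07), and the fatty acid transporter and synthetase Slc27a1 from 8.58, 8.54, 9.30 and 8.80 to 7.31, 7.14, 7.13 and 7.16 (difference -1.62, SE 0.15, adjusted p = 1.55e-05). Thioesterases and acyltransferases were mixed, with 6 of 14 lower and 2 higher (median -0.12). Only 3 were lower without DKO replicates 3 and 4 (median -0.05). Acot11, a thioesterase for long-chain acyl-CoA that cold induces in brown fat, was 6.46, 6.62, 6.55 and 7.17 in WT and 8.34, 8.11, 8.29 and 8.37 in DKO livers and rose (difference 1.58, SE 0.14, adjusted p = 1.33e-05). In ketone production and monocarboxylate transport 7 of 13 fell and 2 rose (median -0.40). Acat1, the mitochondrial thiolase for acetoacetyl-CoA, went from 12.30, 12.26, 12.46 and 12.54 to 11.29, 11.31, 11.19 and 11.01 (difference -1.19, SE 0.09, adjusted p = 4.22e-06). Slc16a6, a transporter that exports ketone bodies in zebrafish liver, moved the other way, from 6.25, 6.35, 6.62 and 6.30 to 10.50, 9.98, 8.89 and 9.57 (difference 3.36, SE 0.27, adjusted p = 6.17e-06). All 4 DKO libraries were above all WT libraries, by at least 2 log2 units.

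A panel of fat oxidation genes that the study also assayed by qPCR is given side by side in the knockout comparisons. The panel was chosen by the study on these samples, so its directions are not independent evidence. In DKO livers 10 of 22 were lower and 3 higher (median -0.30), with 8 and 1 without DKO replicates 1 and 2 (median -0.51) and 8 and 4 without DKO replicates 3 and 4 (median -0.16). In PparaKO livers 18 of 22 were lower and 2 higher (median -0.92, against 13.3% lower and 11.7% higher of all genes tested there). In fed Bcl6LKO livers 17 of 21 were higher and none lower (median 0.84, against 18.3% and 19.8%). Acot3, an acyl-CoA thioesterase, was 10.21, 9.40, 9.49 and 8.97 in WT and 10.33, 9.81, 8.90 and 8.51 in DKO livers, where the groups overlapped and the difference was -0.13 (SE 0.38, adjusted p = 0.812). It differed by -2.04 in PparaKO and 4.66 in Bcl6LKO livers. Acss3, an acyl-CoA synthetase of mitochondria, was 8.86, 9.10, 9.14 and 9.26 in WT and 9.04, 9.01, 9.04 and 8.64 in DKO livers (difference -0.16, SE 0.11, adjusted p = 0.284), beside -2.44 in PparaKO and 1.88 in Bcl6LKO livers. Cd36, which takes up fatty acids, was 10.31, 10.73, 10.32 and 10.79 and 10.60, 10.27, 10.26 and 10.10 (difference -0.23, SE 0.14, adjusted p = 0.202), beside -1.08 and 2.02. For these 3 genes the DKO difference did not pass the test.

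Other members of the panel with a DKO difference that did not pass were Acot2 (0.25), Acot4 (0.05), Acnat2 (0.18), Vldlr (0.44) and the hormone Fgf21 (-0.38), with PparaKO differences of -0.62, -0.64, 0.72, -0.70 and -0.98. Vldlr passed without WT replicate 1 (0.68, adjusted p = 0.0294) and Fgf21 without WT replicate 2 (-0.54, adjusted p = 0.0464). Cyp4a31 was 9.22, 8.56, 9.35 and 8.55 in WT and 8.23, 8.01, 8.53 and 8.11 in DKO livers (difference -0.70, SE 0.19, adjusted p = 0.0138), beside -2.09 in PparaKO and 3.23 in Bcl6LKO livers. Ehhadh, Acadvl and Hadh kept differences in DKO livers (-2.51, -1.15 and -0.81) next to those in PparaKO livers (-2.41, -1.14 and -1.02). Idh2, an NADP-dependent dehydrogenase of mitochondria, rose in DKO livers (0.42) and differed by -0.26 in PparaKO and 1.31 in Bcl6LKO livers, and Ucp2, a carrier of the inner membrane, rose by 0.47. The lipase Abhd2 was higher (difference 0.68, SE 0.23, adjusted p = 0.0398). This call was lost in 10 of 18 alternative settings of the processing or the libraries (adjusted p up to 0.310). They included equal totals and leaving out WT replicate 1, 2 or 4 or DKO replicate 1, 2 or 3. For these single libraries the adjusted p was 0.0579 to 0.1105. Abcd2, a peroxisomal transporter, was lower (difference -0.62, SE 0.22, adjusted p = 0.0468). Its call was lost in 9 of 18 alternative settings (adjusted p up to 0.317). They included quantile normalization and leaving out WT replicate 1 or 4 or DKO replicate 3 or 4. For these single libraries the adjusted p was 0.0884 to 0.115. Acot1 fell by 0.79 and by 0.52 without WT replicate 1. Bdh1, the last enzyme of ketone synthesis, fell by 0.87.

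**Figure D3:**
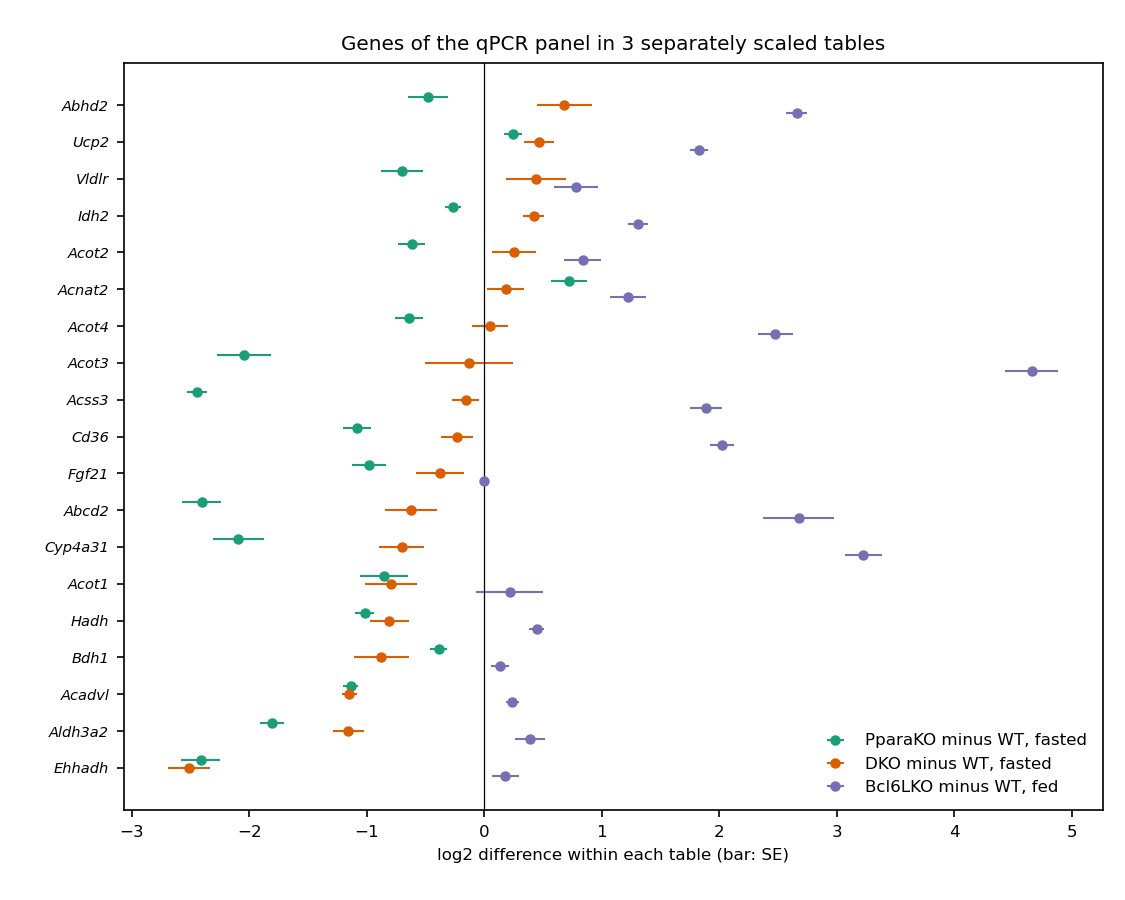
Log2 differences (horizontal axis, bars are SE) of 19 of the 22 qPCR panel genes for fasted PparaKO (green), fasted DKO (orange) and fed Bcl6LKO (purple) livers against WT livers of the same feeding state, each on the scale of its own table. The DKO values run from -2.51 at Ehhadh to 0.68 at Abhd2, and the Bcl6LKO value of Acot3 is 4.66.

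Lipid droplet coats and lipases had 12 of 19 tested members lower and 5 higher (median -0.97). The coat protein Plin4 was 9.36, 9.64, 9.20 and 9.30 in WT and 5.29, 5.31, 5.68 and 5.55 in DKO livers (difference -3.92, SE 0.12, adjusted p = 3.11e-09), the most decreased of the list, beside -0.52 in PparaKO and -0.89 in Bcl6LKO livers. Plin5, the coat that ties droplets to mitochondria, went from 9.81, 9.38, 9.43 and 9.53 to 7.04, 7.10, 7.22 and 7.54 (difference -2.32, SE 0.13, adjusted p = 3.02e-07), and Fitm1, a membrane protein of droplet formation, fell by 3.30. Hsd17b11, a dehydrogenase that resides on droplets, fell by 2.30. Other coats moved the opposite way, with Plin2 at 12.41, 12.09, 12.31 and 12.07 in WT and 12.84, 12.77, 12.68 and 13.20 in DKO livers (difference 0.65, SE 0.12, adjusted p = 0.00186) and Plin3 higher by 0.69. The groups did not overlap for any of these droplet genes.

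In a mixed list of fatty acid synthesis, its regulators and glycolysis, 16 of 26 tested genes were lower and 4 higher (median -0.49). Scd1, the stearoyl-CoA desaturase, was 15.89, 16.47, 14.49 and 16.07 in WT and 12.94, 13.14, 11.49 and 11.27 in DKO livers (difference -3.52, SE 0.50, adjusted p = 2.89e-04). WT replicate 3 was the lowest WT library, and it still lay above all DKO libraries. Me1, which supplies NADPH, fell by 1.96 and the elongase Elovl6 by 1.54. Pfkfb1, the bifunctional enzyme that sets the glycolytic signal in liver, went from 8.72, 8.68, 8.88 and 8.93 to 6.02, 6.44, 7.25 and 6.51 (difference -2.25, SE 0.21, adjusted p = 1.62e-05). Those that rose include Acacb, the acetyl-CoA carboxylase whose product restrains mitochondrial import (10.26, 10.01, 10.52 and 10.31 in WT and 11.73, 11.69, 11.67 and 11.32 in DKO livers, difference 1.33, SE 0.12, adjusted p = 1.30e-05), Insig2 (1.19) and the lipogenic factor Thrsp (0.76). Car3, a carbonic anhydrase abundant in liver and fat, was 12.77, 13.53, 12.15 and 13.42 in WT and 9.11, 8.86, 8.16 and 7.47 in DKO livers (difference -4.56, SE 0.37, adjusted p = 6.69e-06).

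Genes of cholesterol synthesis had 9 of 24 lower and none higher (median -0.37), and WT replicates differed among themselves here. The mean of the list was 9.09, 9.35, 9.99 and 10.1 in WT and 9.53, 9.55, 9.12 and 9.02 in DKO replicates 1 to 4, so the groups overlapped. The count fell to 5 without WT replicate 3 and to 4 without WT replicate 4 or DKO replicate 3, and it was 12 without DKO replicates 1 and 2 and 3 without DKO replicates 3 and 4. Acat2, the thiolase of the first step, fell by 1.17. Among apolipoproteins and assembly factors 7 of 22 rose and 5 fell (3 without WT replicate 1, WT replicate 4 or DKO replicate 1). Apoa4, a component of triglyceride-rich particles, was 11.94, 12.32, 13.37 and 13.22 in WT and 14.71, 14.83, 14.71 and 14.81 in DKO livers (difference 2.05, SE 0.27, adjusted p = 1.95e-04), and Apoc2, the activator of lipoprotein lipase, rose by 1.43.

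The other large group was that of sex-biased liver genes. All livers were male. Of 35 tested genes that are known to be higher in female liver, 23 rose and 6 fell in DKO livers (median 3.60, 21 higher by over 2-fold). All 35 had a WT mean of at least 4, but high DKO values lift low WT values on this scale. In the PparaKO comparison, which uses the same WT libraries, only 20 members of the list were tested. Members that passed the filter through their DKO values can therefore add to the 23 and to the median. A1bg (chromosome 15, 60896859 to 60923012), a plasma glycoprotein typical of female mouse liver, was 6.07, 5.93, 5.84 and 5.91 in WT and 14.10, 13.72, 13.48 and 13.70 in DKO livers. Its groups were over 7 log2 units apart (difference 7.81, SE 0.12, adjusted p = 1.38e-11). Cyp2a4, a steroid hydroxylase of female liver, went from 6.63, 6.60, 6.33 and 6.33 to 13.86, 14.03, 14.92 and 14.68 (difference 7.90, SE 0.21, adjusted p = 1.37e-09) and was the most increased gene of the comparison. Sult2a1, a sulfotransferase of steroids and bile acids, went from 5.31, 5.27, 5.27 and 5.30 to 11.87, 11.53, 11.96 and 11.67 (difference 6.47, SE 0.09, adjusted p = 1.28e-11), although close copies in its family can share reads. The Cyp3a paralogs Cyp3a44, Cyp3a16 and Cyp3a41a, which can likewise share reads, rose by 6.77, 5.97 and 5.34. Serpina6 (chromosome 12, 103646630 to 103657212), the plasma carrier of corticosteroids, was 12.04, 11.70, 11.39 and 11.30 in WT and 17.47, 17.30, 17.36 and 16.99 in DKO livers (difference 5.67, SE 0.17, adjusted p = 2.61e-09).

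In PparaKO and in fed Bcl6LKO livers the differences were -0.01 and 8.47 for A1bg, 0.15 and 7.81 for Cyp2a4, -0.01 and 6.64 for Sult2a1, and -1.42 and 6.22 for Serpina6. A1bg and Sult2a1 lay under the minimum mean in the PparaKO comparison and were not tested there. Hamp2 and Dnah11, which are not on the list, rose as well, and Cyp2b10 is on it. Their values were those of Hamp2 (7.55, 7.12, 6.94 and 7.35 in WT and 12.32, 12.61, 12.50 and 12.11 in DKO livers, difference 5.15, SE 0.14, adjusted p = 1.55e-09), a hepcidin, the dynein heavy chain gene Dnah11 (5.11) and Cyp2b10 (5.26), a drug hydroxylase. Cyp2b10 was 10.66, 10.17, 12.07 and 11.85 in the DKO libraries, with replicates 3 and 4 above replicates 1 and 2. Female-biased genes that fell were led by Cyp4a14 and Cyp4a10, which also belong to omega-hydroxylation, with the retinol dehydrogenase Rdh16 (fell by 1.89) and the glypican Gpc1 (fell by 2.14).

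Of 33 tested male-biased genes 27 fell and none rose (median -1.79, 24 by over 2-fold), and the count was 26 or 27 with any single library left out. Mup7 (chromosome 4, 60066469 to 60070475), a major urinary protein that carries pheromones, was 13.08, 13.34, 13.61 and 12.38 in WT and 8.79, 9.03, 9.28 and 7.76 in DKO livers (difference -4.39, SE 0.33, adjusted p = 3.42e-06). Mup11 and Mup20 fell by 4.71 and 3.10. These genes are near-identical copies whose reads can be split among them, and the 21 urinary protein genes together made up 0.803% ± 0.147 of the summed signal in WT and 0.202% ± 0.057 in DKO livers (SD, n = 4, two-sided exact permutation test, p = 0.0286). Cyp2d9, a male hydroxylase of testosterone, went from 13.65, 13.76, 14.06 and 13.73 to 9.31, 9.57, 9.63 and 8.56 (difference -4.53, SE 0.21, adjusted p = 8.63e-08). Elovl3, an elongase of saturated chains, went from 9.40, 9.42, 8.48 and 8.98 to 5.08, 5.03, 5.15 and 4.80 (difference -4.06, SE 0.19, adjusted p = 9.80e-08). In PparaKO livers Mup7, Cyp2d9 and Elovl3 differed by 0.24, -0.03 and 0.20, and in fed Bcl6LKO livers by -7.10, -5.11 and -5.36.

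STAT5 binds the palindrome TTCNNNGAA, and BCL6 is known to bind a site that overlaps it in sequence. The promoters of A1bg and Hamp2 are shown because both genes rose by over 5 log2 units and hold this palindrome within 100 bases before their start site. The windows are chr15:60921221-60921520 and chr7:30924132-30924431, both on the minus strand of GRCm38.p6 (RefSeq), 250 bases before to 50 after the start, with the match in capitals.
A1bg promoter: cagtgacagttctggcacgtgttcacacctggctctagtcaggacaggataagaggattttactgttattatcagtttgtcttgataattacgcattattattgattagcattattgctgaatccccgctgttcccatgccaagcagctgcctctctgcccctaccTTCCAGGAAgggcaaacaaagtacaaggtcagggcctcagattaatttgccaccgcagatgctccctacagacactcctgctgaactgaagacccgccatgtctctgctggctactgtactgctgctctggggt
Hamp2 promoter: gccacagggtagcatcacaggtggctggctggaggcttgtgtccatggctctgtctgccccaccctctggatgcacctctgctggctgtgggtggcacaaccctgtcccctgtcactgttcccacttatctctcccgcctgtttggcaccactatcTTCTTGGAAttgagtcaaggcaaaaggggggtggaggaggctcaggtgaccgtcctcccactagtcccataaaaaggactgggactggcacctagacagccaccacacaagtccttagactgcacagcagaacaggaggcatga
The matches cover bases 167 to 175 in A1bg and 157 to 165 in Hamp2. The palindrome reads the same on both strands and neither of these windows holds the direct repeat above. The palindrome was found for 6 of 24 tested female-biased genes with a promoter (25%) and for 3 of 25 male-biased genes (12%). Among all tested genes it was found for 789 of 9285 (8.5%). For changed genes it was 20 of 276 higher in DKO livers (7.25%) and 23 of 271 lower (8.49%). In the other lists searched it was 3 of 21 mitochondrial (14.3%) and 1 of 18 peroxisomal (5.56%) oxidation genes and 0 of 21 stress response genes.

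Of 19 tested receptors and regulators of growth hormone signalling 6 were higher and 4 lower (median 0.06), beside 19.3% and 20.8% of all tested genes. The list as a set did not shift to one side, and the values below are those of single members. The count of lower members was 2 without WT replicate 2, WT replicate 4 or DKO replicate 4, and 1 without DKO replicate 3 or without DKO replicates 3 and 4 together. Ghr, the growth hormone receptor, was 12.83, 12.99, 12.75 and 12.87 in WT and 15.10, 14.91, 14.99 and 14.67 in DKO livers (difference 2.06, SE 0.11, adjusted p = 2.37e-07). Prlr, the prolactin receptor, went from 10.61, 10.37, 10.38 and 10.42 to 14.25, 14.09, 14.08 and 14.04 (difference 3.67, SE 0.08, adjusted p = 2.65e-10). Cux2, a homeobox factor of female liver, went from 7.17, 6.84, 7.19 and 6.14 to 10.56, 10.62, 10.79 and 10.39 (difference 3.76, SE 0.20, adjusted p = 3.01e-07). Socs2, an inhibitor of the receptor that growth hormone induces, rose by 1.84, and the growth factor Igf1, its main target in liver, fell by 0.75. In all of these the groups did not overlap.

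Cytochromes of families 2 and 3 were split, with 18 of 39 tested members higher and 16 lower (median -0.03). With any single library left out, 15 to 17 were higher and 16 lower. Beside the female-typical members above, Cyp3a11, the main drug-oxidizing Cyp3a of mouse liver, was 15.90, 15.91, 15.04 and 15.21 in WT and 12.14, 12.02, 12.52 and 12.38 in DKO livers (difference -3.25, SE 0.21, adjusted p = 1.03e-06). Cyp2e1, which oxidizes ethanol and ketones, went from 17.04, 16.85, 17.11 and 16.92 to 14.96, 15.01, 15.14 and 14.68 (difference -2.03, SE 0.13, adjusted p = 1.12e-06). Of 38 conjugation enzymes with a WT mean of at least 4, 11 rose and 15 fell, and a 39th that passed the filter through its DKO level alone rose too. Ugt3a1 went from 9.70, 9.58, 9.53 and 9.43 to 6.58, 6.53, 6.14 and 5.68 (difference -3.32, SE 0.17, adjusted p = 2.50e-07), and Gstm3, a glutathione transferase, from 6.29, 6.69, 6.10 and 6.75 to 9.33, 9.93, 11.01 and 11.53 (difference 3.99, SE 0.40, adjusted p = 2.86e-05), with DKO replicates 3 and 4 above replicates 1 and 2. Among 21 tested genes that make or carry bile acids, 15 fell and 2 rose (median -0.65, 1 higher without any single WT library or without DKO replicate 3 or 4). The uptake transporter Slco1a1 went from 12.20, 11.93, 11.59 and 11.74 to 9.62, 9.54, 8.96 and 8.19 (difference -2.79, SE 0.27, adjusted p = 2.46e-05), and the exporter Abcc3 fell by 2.29. Cyp8b1, which makes cholic acid, was 13.16, 13.15, 13.81 and 13.79 in WT and 12.30, 12.78, 11.73 and 10.16 in DKO livers (difference -1.74, SE 0.46, adjusted p = 0.0121), with DKO replicate 4 the lowest. The bile acid receptor gene Nr1h4 fell by 1.18.

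Acute phase proteins, which the liver secretes in inflammation, were mostly higher. Of 26 tested acute phase proteins 21 rose and 3 fell (median 1.03), against 17 and 2 (median 0.95) without DKO replicates 1 and 2 and 21 and 3 (median 1.32) without DKO replicates 3 and 4. The largest rise counted here was 5.15, that of the hepcidin gene Hamp2 given above with the sex-biased genes. Saa2, a serum amyloid A with a near-identical copy, was 7.23, 7.91, 7.61 and 7.14 in WT livers and in DKO livers 14.31, 13.63, 11.39 and 8.61, with replicates 1 and 2 the highest. Every DKO library was above every WT library (difference 4.51, SE 0.99, adjusted p = 0.00452). Lcn2, a siderophore-binding lipocalin, went from 6.52, 7.62, 7.25 and 7.35 to 12.80, 12.28, 10.68 and 10.72 (difference 4.44, SE 0.45, adjusted p = 3.13e-05), and the acid glycoprotein Orm2 from 6.26, 6.93, 6.94 and 6.18 to 11.57, 11.09, 10.75 and 9.10 (difference 4.05, SE 0.44, adjusted p = 4.70e-05). Hpx, the heme carrier hemopexin, rose by 1.77 and the pentraxin Apcs by 2.06. In PparaKO livers, set against the same WT libraries, the differences were 5.77, 4.19, 3.96, 1.54 and 1.77 for Saa2, Lcn2, Orm2, Hpx and Apcs. Those that fell were Saa4 (-1.51) and the protease inhibitors Serpina3k (-0.88) and Serpina3m (-0.32, not called without WT replicate 2 or DKO replicate 2, adjusted p = 0.0665 and 0.0624).

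Complement genes were divided, with 7 of 30 higher and 10 lower (median 0.10). The higher members numbered 4 without DKO replicates 1 and 2 (median -0.08) and 12 without DKO replicates 3 and 4 (median 0.22). The components of the terminal pore C9, C6 and C8a fell, C9 from 11.83, 12.17, 12.02 and 11.87 to 9.83, 10.22, 9.41 and 8.87 (difference -2.39, SE 0.23, adjusted p = 2.32e-05) and the others by 1.95 and 1.79, and all 3 are also on the male-biased list. C3, the central component, rose by 0.68, a call lost under quantile normalization (0.10, adjusted p = 0.471). Of coagulation factors 12 of 22 rose and 2 fell (median 0.33). Vwf, the platelet-binding factor that endothelial cells are known to make, was 8.33, 8.53, 8.98 and 8.38 in WT and 11.71, 11.70, 12.42 and 12.25 in DKO livers (difference 3.46, SE 0.19, adjusted p = 3.01e-07), while the summed endothelial markers stood at the ranges given above and the part of these cells was not tested. F7 rose by 1.71. Alb, the plasma carrier, was 19.79, 19.70, 19.41 and 19.71 in WT and 20.65, 20.60, 20.87 and 20.67 in DKO livers (difference 1.05, SE 0.24, adjusted p = 0.00635). Its share of the summed signal was 6.23% ± 0.68 in WT and 12.1% ± 0.79 in DKO livers (SD, n = 4, two-sided exact permutation test, p = 0.0286). Under quantile normalization its difference is 0 by construction, because it is the highest gene in each library.

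Of 21 tested hepatokines 7 rose and 3 fell. Igfbp1, a binding protein that insulin represses, was 10.32, 9.83, 10.17 and 8.85 in WT and 12.21, 12.50, 13.88 and 13.84 in DKO livers (difference 3.32, SE 0.42, adjusted p = 1.39e-04), beside 2.17 in PparaKO and 1.51 in Bcl6LKO livers. The stress cytokine Gdf15 was 5.90, 5.67, 5.53 and 5.68 in WT and 6.53, 7.21, 7.30 and 8.18 in DKO livers (difference 1.61, SE 0.27, adjusted p = 9.35e-04) and the adropin gene Enho rose by 1.84. Genes of gluconeogenesis and glucocorticoid response had 5 of 24 higher and 8 lower (5 lower without WT replicate 3). The kinase Sgk1, which corticosteroids induce, was 8.98, 8.69, 8.98 and 8.48 in WT and 12.15, 11.67, 11.59 and 12.03 in DKO livers (difference 3.08, SE 0.15, adjusted p = 1.46e-07). Pdk4, which holds back pyruvate oxidation, rose by 1.29. The rate-limiting enzymes Pck1 and G6pc, chosen after their values were seen, did not pass the test. Pck1 was 15.83, 15.90, 15.93 and 15.53 in WT and 15.38, 15.48, 15.69 and 15.14 in DKO livers (difference -0.37, SE 0.14, adjusted p = 0.0607), and it passed without WT replicate 4 (adjusted p = 0.0372) or DKO replicate 3 (0.0321). G6pc was 11.97, 11.35, 12.26 and 11.42 and 11.77, 11.12, 10.06 and 10.05 (difference -0.999, SE 0.37, adjusted p = 0.0509), and it passed without DKO replicate 1 (-1.34, adjusted p = 0.0059). It was -1.70 without DKO replicates 1 and 2 (adjusted p = 0.000585) and -0.30 without DKO replicates 3 and 4 (adjusted p = 0.39).

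Genes of the unfolded protein and integrated stress responses were higher in DKO livers, to a degree that differed among the 4 libraries. Of 22 members with a WT mean of at least 4, 14 rose and none fell, and a 23rd with a lower WT mean rose too (median of all 23 members 1.14). This split may not remove every member that passed the filter through its DKO values. In the PparaKO comparison, which uses the same WT libraries, 22 members of the list were tested. The mean of the list was 9.31 to 9.42 in the WT libraries and 9.84, 10.1, 10.9 and 11.5 in DKO replicates 1 to 4. Without DKO replicates 1 and 2, 19 of 22 rose (median 1.69), and without DKO replicates 3 and 4, 14 of 22 rose (median 0.45). Creld2, a chaperone-like protein that stress in the endoplasmic reticulum induces, was 8.61, 8.17, 8.21 and 8.09 in WT and 9.36, 9.63, 11.93 and 12.43 in DKO livers (difference 2.57, SE 0.60, adjusted p = 0.00668). Hspa5, the main chaperone of that compartment and a gene chosen after its values were seen, was 13.51, 13.10, 13.20 and 13.18 in WT and 13.83, 14.01, 15.69 and 16.21 in DKO livers (difference 1.69, SE 0.46, adjusted p = 0.0147). Both were highest in DKO replicates 3 and 4. Herpud1, also chosen after its values were seen, overlapped between groups, with 13.27, 13.08, 12.35 and 12.16 in WT and 11.84, 12.10, 13.93 and 14.04 in DKO livers (difference 0.26, SE 0.49, adjusted p = 0.703).

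Ddit3, the transcription factor CHOP, went from 6.36, 6.31, 6.08 and 6.21 to 7.36, 8.10, 8.74 and 10.32 (difference 2.39, SE 0.48, adjusted p = 0.00291). Atf3 was 4.71, 4.63, 4.92 and 4.65 in WT and 6.07, 6.91, 6.35 and 9.11 in DKO livers (difference 2.38, SE 0.53, adjusted p = 0.005), with DKO replicate 4 over 2 log2 units above the other DKO libraries. Nupr1, a small stress-induced chromatin protein, was 4.53, 4.47, 4.66 and 4.66 in WT and 6.61, 7.75, 7.55 and 8.68 in DKO livers (difference 3.07, SE 0.33, adjusted p = 4.53e-05). It is not on the list and not in its counts, and it may have passed the filter through its DKO values. Manf, Sdf2l1 and the pseudokinase Trib3 rose by 1.80, 2.37 and 1.84. In PparaKO livers 5 of 22 tested members of the list were higher and 1 lower (median 0.17), and in fed Bcl6LKO livers none was higher and 4 were lower (median -0.02). The differences of Creld2, Ddit3, Manf, Trib3, Sdf2l1 and Atf3 were 0.17, 0.04, 0.29, 0.35, 0.54 and 0.45 in PparaKO livers, where Trib3, Sdf2l1 and Atf3 passed the test. In fed Bcl6LKO livers they were 0.47, -0.06, -0.15, -0.49, 0.27 and 0.13, and Trib3 passed. Nupr1 was not tested in either.

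**Figure D4:**
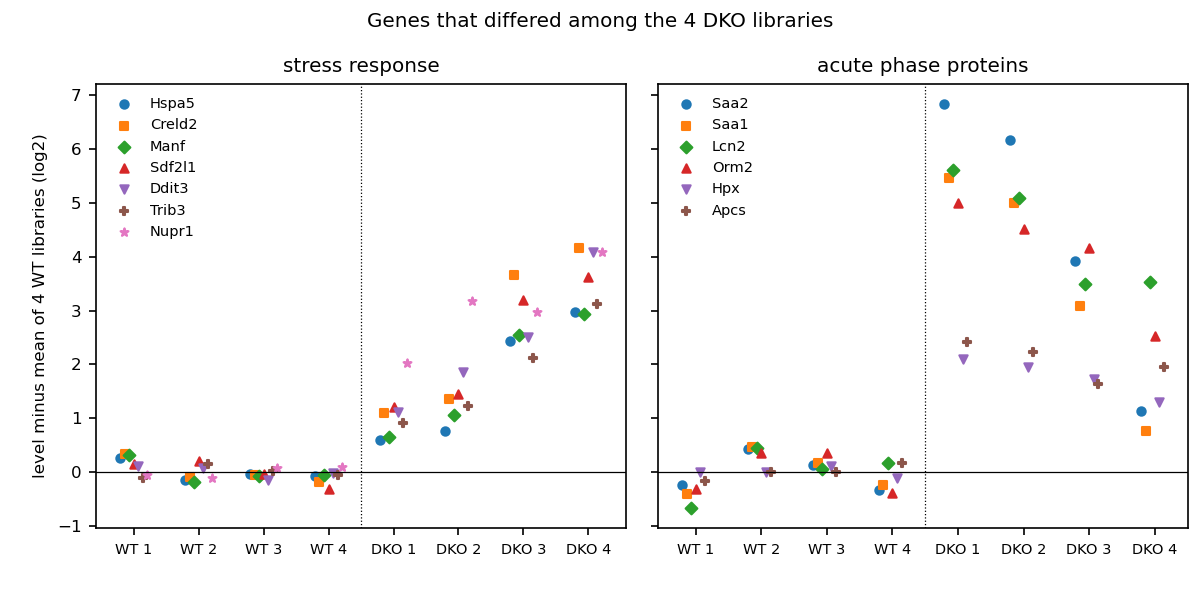
Level of each gene minus its mean over the 4 WT libraries (log2, vertical axis) in each of the 8 fasted livers (horizontal axis), for genes of the stress response (left) and acute phase proteins (right). The mean of the stress list runs from 9.84 in DKO replicate 1 to 11.5 in DKO replicate 4, and that of the acute phase list from 13.2 to 12.3.

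Subunits of oxidative phosphorylation were lower by a small and even amount, with 26 of 30 tested members lower and 2 higher (median -0.50), and none of them by over 2-fold. Atp5a1, a subunit of ATP synthase, was 13.44, 13.46, 13.53 and 13.56 in WT and 12.71, 12.76, 12.86 and 12.78 in DKO livers (difference -0.72, SE 0.07, adjusted p = 2.55e-05). Sdhd of complex II fell by 0.77 and cytochrome c, Cycs, by 0.86. The 2 that rose, Idh2 and Ucp2, are no subunits of the chain. In the urea cycle and amino acid catabolism 14 of 32 fell and 4 rose (median -0.27), against 11 and 9 without DKO replicates 1 and 2 (median -0.19). Slc25a13, the aspartate carrier of mitochondria, fell by 1.27 and Tdo2, which opens tryptophan breakdown, by 0.83, while the aminotransferases Tat and Agxt rose by 1.17 and 1.08.

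Of 28 tested nuclear receptors 13 fell and 4 rose (14 and 7 without DKO replicates 3 and 4). Esrrg, an orphan receptor of oxidative metabolism, went from 6.06, 5.95, 6.09 and 6.14 to 4.27, 3.78, 3.93 and 3.88 (difference -2.09, SE 0.11, adjusted p = 2.90e-07), and the xenobiotic receptor gene Nr1i3 fell by 1.23. The estrogen receptor gene Esr1 rose by 0.75. Circadian genes had 9 of 21 lower and 1 higher (median -0.27), among them the output factor Hlf (-1.39). Of 15 cell cycle genes with a WT mean of at least 4, 6 rose and 1 fell, and a 16th that passed the filter through its DKO level alone rose too. Ccnd1, cyclin D1, was 7.53, 7.48, 7.60 and 7.61 in WT and 9.13, 9.41, 8.92 and 8.69 in DKO livers (difference 1.48, SE 0.13, adjusted p = 1.15e-05), and the inhibitor Cdkn1a rose by 1.73. Mki67, a proliferation marker, was 5.91, 6.12, 5.81 and 5.85 in WT and 8.08, 7.73, 6.92 and 6.27 in DKO livers (difference 1.33, SE 0.32, adjusted p = 0.00767), with DKO replicates 1 and 2 above replicates 3 and 4. In the same libraries the mean of the stellate markers was 8.53, 8.37, 8.15 and 7.86 in DKO replicates 1 to 4 and 7.89 to 8.02 in WT livers, and its part in these values was not tested.

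**Figure D5:**
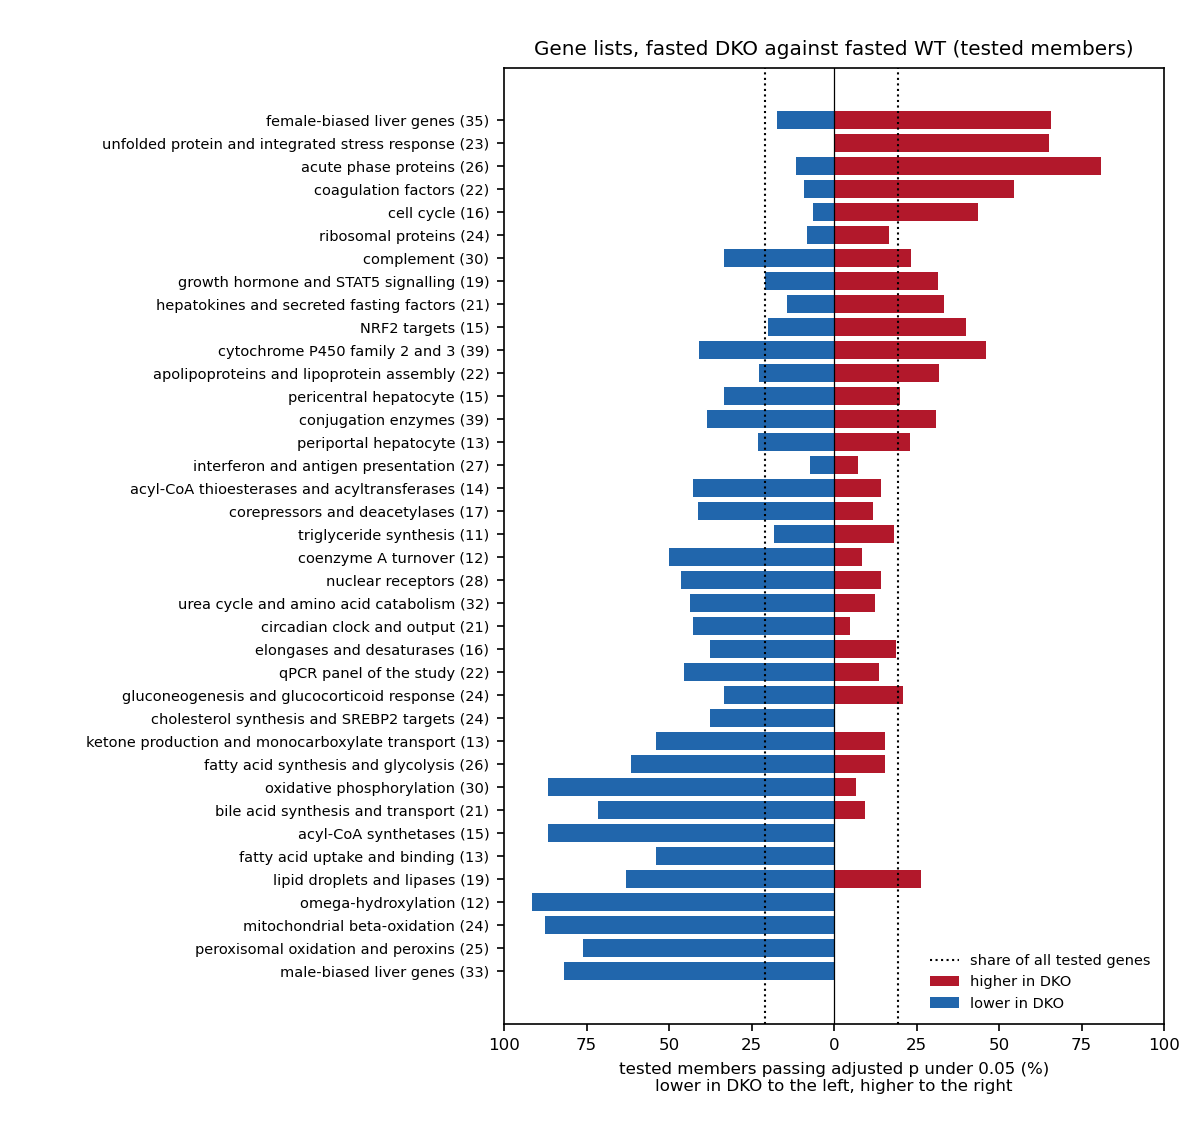
Share (%, horizontal axis) of the tested members of each gene list, with their number in brackets, that were lower (blue, to the left) or higher (red, to the right) in fasted DKO than in fasted WT livers at an adjusted p under 0.05, in order of the lists' median difference. Dotted lines mark the 20.8% lower and 19.3% higher among all tested genes, which mitochondrial beta-oxidation (21 of 24 lower) and acute phase proteins (21 of 26 higher) exceed.

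The 734 changed genes were last set beside the knockouts of each gene alone. The fed Bcl6LKO comparison, in which 2.7% of tested genes were changed higher and 1.53% lower, shares no library with the DKO comparison. Of 11859 genes tested in both, 349 were changed higher and 362 lower in DKO livers, and 308 were higher and 179 lower in Bcl6LKO livers. The 198 genes higher in both made up 56.7% of those in DKO and 64.3% of those in Bcl6LKO livers, and the 122 lower in both made up 33.7% and 68.2%. Only 8 genes had changed in opposite directions, and they were chosen here after their values were seen. Saa2, Saa1 and the sphingomyelinase gene Smpd3 were higher in DKO and lower in Bcl6LKO livers. Vnn1, Cyp4a10, Rdh16, the glutaminyl cyclase gene Qpct and 1500017E21Rik were lower in DKO and higher in Bcl6LKO livers. Qpct was 6.84, 6.43, 6.42 and 6.37 in WT and 5.40, 5.46, 5.02 and 5.10 in DKO livers (difference -1.27, SE 0.14, adjusted p = 4.59e-05) and differed by -1.01 in PparaKO and 1.27 in Bcl6LKO livers.

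In PparaKO livers 0.67% of tested genes were changed higher and 0.905% lower. Genes changed in DKO and PparaKO livers with a Bcl6LKO difference under 0.5 in size included Decr2, Cyp4a32, Plin5, the retinal dehydrogenase Aldh1a1 and Eci1 among those lower. Aldh1a1 was 13.84, 14.14, 14.03 and 14.02 in WT and 12.16, 12.18, 11.76 and 11.36 in DKO livers (difference -2.14, SE 0.17, adjusted p = 4.53e-06), beside -1.18 and -0.30. Among those higher in both were Orm2, Apcs and Hpx, the acute phase proteins above. Genes with a difference under 0.5 in size in each knockout alone but changed in DKO livers included, on the higher side, Nupr1, Creld2, Ddit3, Trib3 and Manf of the stress response and Nucb2, the calcium-binding nucleobindin (5.56, 5.69, 5.50 and 5.50 in WT and 6.89, 6.43, 7.37 and 8.33 in DKO livers, difference 1.69, SE 0.32, adjusted p = 0.00186). On the lower side these included Acat2, the cytosolic thiolase described with cholesterol synthesis, and the ephexin gene Ngef (-1.28). Such a value under 0.5 in size is a description and does not show that the gene was unaffected there. Nupr1 was too low to be tested in either knockout alone.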

How the data were processed

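Total RNA of fasted livers had been depleted of ribosomal RNA and sequenced as stranded libraries. The authors aligned the reads to mm10 with STAR, counted exon reads with HOMER and normalized each pair of groups with DESeq2, and the deposited values are log2 levels per gene and library, in which low values are drawn toward the gene's mean. No counts were used, so depth is unknown and the number of libraries limits the precision. The tables also hold the authors' log2 fold changes, p-values and adjusted p-values, which were not used. The 4 tables of 8 libraries were treated separately. Genes with a mean under 4 or listed at 0 throughout were left out, and limma 3.58.1 in R 4.3.3 (moderated test with a trend, no covariate, no pseudocount) was run on the values as deposited, with Benjamini-Hochberg adjustment over all tested genes. Changed genes are those with a fold over 2 and an adjusted p under 0.05. Summed levels and shares were computed from 2 to the power of the deposited log2 values. Members and the 49 gene lists were chosen with earlier results of these data known. Genes were named by rule: Bcl6, Ppara, Ppard, Pparg and Alb; up to 12 changed genes per direction with the largest difference, no overlap and a mean of at least 6, other than clone or model names; up to 4 members per direction of each list past the adjusted p; the qPCR panel; and up to 8 genes per direction in each of 3 classes set by the other knockouts. Genes outside this rule are marked as chosen after their values were seen. The script was tested on simulated data. Alternatives changed the scaling, filter, trend, fold limit and libraries included. Fasted Bcl6LKO livers (4 samples) were not used here. Results for some genes of the rule are not reported here.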

Additional observations from a re-analysis of the deposited data

Results flagged for a closer look

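In 306 groups of 4 libraries from 153 named genes, 12 held a library far from the other members of its group (a gap above Dixon's critical value), where chance gives about 5% of groups. Among WT libraries, replicate 3 was highest for Decr2 (12.12), Pank1 (12.28) and Glul (13.89). WT replicate 4 was lowest for Lipg (7.99). WT replicate 1 was lowest for Mup20 (12.97) and highest for Qpct (6.84), and WT replicate 2 was highest for Saa4 (11.07) and Serpina3m (12.61). In the DKO group, replicate 4 was lowest for Aldh3a2 (11.48), Acss3 (8.64) and Acacb (11.32), and replicate 3 was highest for Mt1 (13.23). With that library left out, the DKO difference of each of these genes kept its sign, and Serpina3m alone lost its call (adjusted p = 0.0665).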

How the results depend on the processing

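Counts of changed genes ran from 334 to 378 higher and from 334 to 429 lower over the other scalings, trends and single libraries left out. A fold limit of 1.5 gave 859 higher and 903 lower, and no filter on low values gave 374 and 369 of 17967 tested, while a minimum mean of 6 gave 274 and 317 of 9666. Without DKO replicates 1 and 2 the counts were 417 and 439 (680 of the 734 genes shared), and without DKO replicates 3 and 4 they were 370 and 327 (616 shared). Same-numbered DKO and WT libraries did not deviate together (correlations -0.087, -0.076, -0.037 and -0.061, none best with its own number), and a fit with the replicate number as a block called 367 higher and 365 lower. Some genes that were not called changed sign: Bcl6 ran from -0.78 to 0.030 and Acot3 from -0.44 to 0.16 with single libraries left out, and Acot3 was 0.55 without DKO replicates 3 and 4. Acot4 ran from -0.0832 to 0.15, and was -0.04 under equal totals and -0.17 without DKO replicates 1 and 2. Herpud1 ran from -0.0911 to 0.64, and was -0.75 without DKO replicates 3 and 4 and 1.27 without DKO replicates 1 and 2. Cyp4a31, Acot1, Ucp2 and C3 lost their calls without DKO replicates 1 and 2 (adjusted p 0.0815, 0.065, 0.0958 and 0.053), as did Abhd2 and Serpina3m. Without DKO replicates 3 and 4, Cpt1a was 0.021, and Acot1 and 1500017E21Rik lost their calls (adjusted p 0.0518 and 0.0576), as did Abcd2. Called differences that moved by over 1.5 times without DKO replicates 3 and 4 were Creld2 (1.23), Ddit3 (1.49), Sdf2l1 (1.33), Manf (0.86), Trib3 (1.07), Hspa5 (0.68), Nucb2 (1.09), Cyp8b1 (-0.94), Hadh (-0.49), Bdh1 (-0.45), Abcd2 (-0.30), Abhd2 (1.07) and 1500017E21Rik (-0.87). Without DKO replicates 1 and 2 they were Creld2 (3.91), Manf (2.74), Hspa5 (2.70), Saa2 (2.53), Saa1 (1.92), Mki67 (0.67), Tdo2 (-0.53), Abcd2 (-0.95) and Abhd2 (0.30). The causes were not tested. Differences of low genes, and calls that rest on DKO replicates 1 and 2 or 3 and 4, are the least certain.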

Other observations

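Genes that protect against metals and oxidants moved in part. Of 7 tested metallothioneins and zinc transporters 3 rose and 1 fell (median 0.21, 3 lower without DKO replicates 1 and 2), and Mt1, a metallothionein, was 11.05, 11.62, 10.24 and 10.75 in WT and 12.88, 12.91, 13.23 and 12.89 in DKO livers (difference 2.06, SE 0.24, adjusted p = 6.68e-05). Of 15 tested targets of the oxidant sensor NRF2 6 rose and 3 fell (median 0.04). Pericentral genes showed 3 of 15 higher and 5 lower, and periportal genes 3 of 13 higher and 3 lower (1 and 5 higher, respectively, without DKO replicates 1 and 2). Glul, the glutamine synthetase of pericentral hepatocytes, was 13.45, 13.37, 13.89 and 13.41 in WT and 12.38, 12.16, 12.14 and 11.79 in DKO livers (difference -1.42, SE 0.14, adjusted p = 3.14e-05). Interferon and antigen presentation genes had 2 of 27 higher and 2 lower, against 11 lower and none higher without DKO replicates 1 and 2, and 8 higher and 2 lower without DKO replicates 3 and 4. With single libraries left out, 5 were higher without DKO replicate 3 and 4 were lower without DKO replicate 1.

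Within 10 Mb of Ppara on chromosome 15, 50.2% of 211 tested genes passed the adjusted p (48 higher and 58 lower), with 11 changed higher and 7 lower. Within 10 Mb of Bcl6, 37.2% of 145 genes passed, with 2 changed higher and 3 lower. Over all tested genes, 19.3% were higher and 20.8% lower by the adjusted p, and 3.07% and 3.05% were changed. Rpl3, a ribosomal protein gene in the first window, was 6.91, 6.99, 7.02 and 7.20 in WT and 5.06, 5.04, 5.28 and 5.35 in DKO livers (difference -1.84, SE 0.10, adjusted p = 3.55e-07) and differed by -1.47 in PparaKO livers. The ceramide kinase gene Cerk and the arylsulfatase gene Arsa, also there and chosen after their values were seen, differed by 2.29 and -1.91. Whether DNA flanking the Ppara deletion differs between the groups was not tested.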
